A study of Arabidopsis thaliana with 18 samples.

Results

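The WRKY family of transcription factors was followed in rosettes of Arabidopsis over 3 genotypes and 2 times of day. Every row of the deposited table whose gene name holds WRKY and a number was taken, which gave 70 genes of 32833, and all 70 were found in the TAIR10.1 annotation. RRS1 and RRS1B, which carry WRKY numbers only as other names, were left out by that rule. RNA of whole rosettes of 20-d-old plants was sequenced at the end of the night (EN, ZT 24 h) and at the end of the day (ED, ZT 12 h), with 3 libraries for each genotype and time, 18 in all. SnRK1α1-OE carries 35S::SnRK1alpha1, a transgene that drives a catalytic subunit of the energy-sensing kinase SnRK1 from a promoter active in most tissues. sesquiα2 is homozygous for the T-DNA allele GABI_579E09 of SnRK1α1 and heterozygous for the allele WiscDsLox384F5 of SnRK1α2. Col-0 is the wild type and, per the study's methods, the background of both SnRK1α1-OE and sesquiα2. No treatment set the groups apart, and per the study's methods all plants grew on soil with the fungicide Previcur and were given nematodes against pests. By the same methods the light and dark periods also differed in temperature, so time of day, light and temperature cannot be told apart. Seedlings of sesquiα2 were first selected on BASTA plates for 6 d, while Col-0 was sown on soil, so this handling and the genotype cannot be told apart. Each library is a pool of several whole rosettes, and the labels do not say that the pools came from separate sowings, so p-values measure only the spread between these pools.

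WRKY proteins share a DNA-binding domain with a zinc finger and bind the W box, TTGACC or TTGACT. Many of their own genes carry W boxes, so that members act on each other. In leaves they are best known for pathogen responses, salicylic acid signalling and senescence, and several respond quickly to a stimulus. By the published classes, which go by the number of WRKY domains and the form of the zinc finger, the table held 14 genes of class I, 3 of IIa, 8 of IIb, 18 of IIc, 7 of IId, 7 of IIe and 13 of class III.

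The libraries held 35050877 to 40416618 reads, and all values below are normalized reads, scaled by the authors to nearly the same total in each library (37929523 to 37930213). The transcript of SnRK1α1 averaged 30830 ± 1710 in SnRK1α1-OE and 1711 ± 27.6 in Col-0 at ED (SD, n = 3 each), and 29210 ± 448 in SnRK1α1-OE and 1945 ± 55.9 in Col-0 at EN (SD, n = 3 each). In the libraries labelled sesquiα2 it averaged 1833 ± 144 at EN and 1732 ± 28.9 at ED (SD, n = 3 each), and since a value per gene does not say where along the gene the reads fall, it does not check the label. The transcript of SnRK1α2 averaged 1224 ± 57.8 in sesquiα2 and 1351 ± 142 in Col-0 at EN, and 1006 ± 88 in sesquiα2 against 1471 ± 57.2 in Col-0 at ED (SD, n = 3 each). The summed level of 3 rosette leaf genes (RBCS1A, CAB1 and RCA) lay between 1200720 and 2269080 per library, and that of 5 root genes between 6 and 27. With 3 libraries against 3, an exact permutation test cannot give a p below 0.1, so the tests are those of limma across all genes.

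A few WRKY genes carried much of the signal. Of the 70 members, 11 averaged at least 1000 normalized reads over the 18 libraries, 25 averaged 100 to 1000 and 34 under 100. Per kb of transcript, WRKY70 stood highest with a level of 3561, followed by WRKY54 with 1384, WRKY15 with 1348, WRKY33 with 912.5 and WRKY1 with 720. WRKY70 and its relative WRKY54 act in salicylic acid signalling and hold back leaf senescence, and WRKY33 is needed for camalexin synthesis and resistance to necrotrophic fungi. WRKY70 held 11.7% to 23.4% of the summed value of the 70 genes in a library. At the other end, WRKY9, WRKY10, WRKY24, WRKY34, WRKY43, WRKY56, WRKY64, WRKY66, WRKY68 and WRKY72 had at most 12 reads in any library and entered no test, and for 2 of these 10 no library held more than 3 reads. The other 60 passed the filter on low values, at least 10 in at least 3 libraries, as did 20338 genes in all.

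The pools of a group differed more in WRKY genes than in most genes at ED, and less clearly so at EN. The SD of log2(value + 1) within a group had a median over the 60 WRKY genes of 0.31 in SnRK1α1-OE, 0.40 in sesquiα2 and 0.61 in Col-0 for the ED pools, and over all 20338 genes of 0.18, 0.17 and 0.19 in the same groups. At EN the medians over the WRKY genes were 0.27 in SnRK1α1-OE, 0.28 in sesquiα2 and 0.26 in Col-0, and those over all genes 0.19, 0.15 and 0.21. An SD over 0.5 was seen for 36 of the 60 in Col-0 at ED, or 60%, against 15.1% of all genes. All genes were also put into 10 bins of level. At ED, 40 of the 60 in SnRK1α1-OE, 43 in sesquiα2 and 48 in Col-0 lay above the median SD of their bin. At EN these were 32, 38 and 32 in the same order, close to an even split in SnRK1α1-OE and Col-0.

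In Col-0 at ED 1 pool stood apart. Replicate 1 was the lowest of its group for 39 of the 60 genes, against 40.3% of all genes. For 20 of the 60 it lay at least 2-fold below both other pools, against 4.44% of all genes. WRKY46, which acts in salicylic acid and drought responses, had 290.9, 1816 and 1425 in Col-0 at ED, in the order of replicates 1 to 3 used throughout. WRKY33 had 575, 3011 and 1711 there, and WRKY40, a repressor of basal defence, had 136, 1116 and 532.8. In each of these genes replicate 1 was low and replicates 2 and 3 were high. WRKY12 and WRKY35, named after their values were seen, went the other way, WRKY12 with 62.67, 24.67 and 26.12 and WRKY35 with 30.96, 8.83 and 13.05, at least 2-fold higher in replicate 1 than in both other pools. The shoot apex gene STM had 39.35, 62.23 and 80.56 in SnRK1α1-OE, 65.23, 262.3 and 60.37 in sesquiα2 and 201.8, 42.35 and 103.8 in Col-0 at ED. With AP1 and LFY, which had under 5 in every library, the summed level of these apex and inflorescence genes lay between 39 and 85 in SnRK1α1-OE, 64 and 266 in sesquiα2 and 42 and 203 in Col-0 at ED, and its part in the results was not tested. The genes with the largest spread over the 6 groups were WRKY67 (mean SD 1.42), WRKY31 (1.32), WRKY49 (1.07), WRKY61 (1.03), WRKY41 (1.01) and WRKY75 (1.01), all with a mean under 100 normalized reads. WRKY75, which acts in phosphate starvation and leaf senescence, had 12.81, 118.2 and 98.71 in Col-0 at ED, low in replicate 1 again.

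The ED pools of the lines also differed. In SnRK1α1-OE at ED replicate 1 was the highest for 44 of the 60 genes, against 33.7% of all genes. It lay at least 2-fold above both others for 4, against 1.04% of all genes. In sesquiα2 at ED replicate 1 was the lowest for 38, against 46.7% of all genes. Replicate 3 there lay at least 2-fold above both others for 10, against 1.94% of all genes. WRKY46 had 197.4, 393.6 and 847.3 in sesquiα2 at ED and WRKY53 had 153.7, 348.2 and 629.4, both lowest in replicate 1 and highest in replicate 3. At EN no library lay at least 2-fold below both others for more than 4 of the 60 genes, or above both for more than 2.

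**Figure D1:**
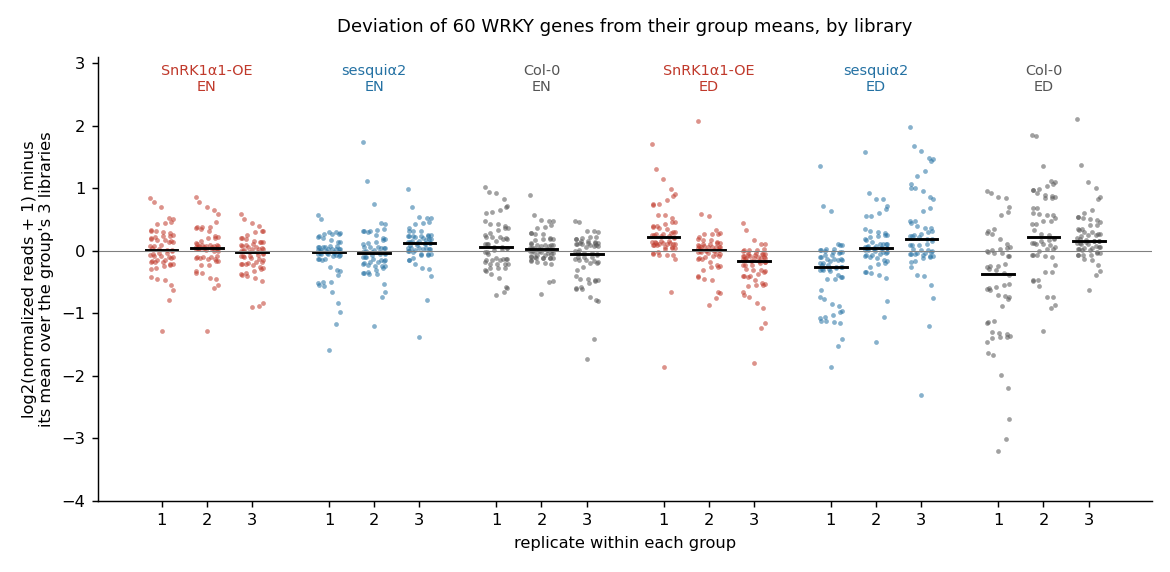
Each point is 1 of the 60 WRKY genes that passed the filter, plotted as its log2(normalized reads + 1) minus its mean over the 3 libraries of the group (vertical axis, log2 units) for each replicate (horizontal axis), with the median over the genes as a black bar. Replicate 1 of Col-0 at ED has a median deviation of −0.37, while the medians of the EN libraries lie between −0.05 and 0.13.

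The summed level of 13 genes of salicylic acid and immunity was 107075, 44275 and 33433 in SnRK1α1-OE, 14227, 28510 and 97764 in sesquiα2 and 24530, 198927 and 169301 in Col-0 for the ED pools, and none of the 13 was at 0 in any library. PR1, PR2 and PR5 held the largest values, and some others of the list differed little between pools, such as NPR1 with 1422, 1296 and 1307 in SnRK1α1-OE and 1435, 1866 and 1659 in Col-0 at ED. At EN the sum lay between 47110 and 83792 in SnRK1α1-OE, between 48756 and 70210 in sesquiα2 and between 42275 and 56581 in Col-0. The part of these differences between pools in the comparisons was not tested, and the numbers of WRKY genes called in comparisons that use Col-0 ED replicate 1 are given with and without it. That pool was singled out after its low WRKY values were seen, so calls made without it are not independent of the choice. In whole rosettes, fewer cells that express a gene and less of its RNA per cell cannot be told apart.

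At EN, 6 WRKY genes were higher in sesquiα2 than in Col-0 and none was called lower. They were WRKY33, WRKY40, WRKY27, WRKY53, WRKY11 and WRKY46, called by limma at an adjusted p under 0.05 over 19582 genes. They make up 10.5% of the 57 WRKY genes tested, against 1.84% of all genes called higher and 2.95% called in either direction. WRKY33 alone also reached a log2 fold change of 1, a limit that 0.792% of all genes passed upward. The pools of the groups did not overlap for 15 WRKY genes upward and 3 downward, 31.6%, against 25.4% of all genes. The median log2 fold change was 0.25 over the WRKY genes and 0.10 over all genes.

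WRKY33 had 3753, 2943 and 2876 normalized reads in sesquiα2 at EN, against 1424, 1492 and 1822 in Col-0. All sesquiα2 pools lay above all Col-0 pools, and WRKY33 rose by 1.01 on the log2 scale (SE 0.137, adjusted p = 0.00542). WRKY40 had 753.3, 722.1 and 937.3 in sesquiα2, against 386.3, 420.7 and 460.4 in Col-0, and rose by 0.92 on the log2 scale (SE 0.138, adjusted p = 0.00887). The groups were as clearly apart as for WRKY33. WRKY53, an activator of leaf senescence, had 876.3, 632.3 and 768.1 in sesquiα2, against 451.1, 480.8 and 439.1 in Col-0 (log2 fold change 0.72, adjusted p = 0.0272). WRKY46 had 1232, 1226 and 1275 in sesquiα2, against 1007, 699.5 and 734.5 in Col-0 (log2 fold change 0.63, adjusted p = 0.0477). Here the sesquiα2 pools were close together, and Col-0 replicate 1 stood above the other Col-0 pools.

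WRKY11, a class IId gene that dampens basal resistance, had 590.8, 564 and 573.6 in sesquiα2, against 367.1, 365.5 and 332.5 in Col-0 (log2 fold change 0.70, adjusted p = 0.016). Its means were 576.1 ± 13.6 in sesquiα2 and 355 ± 19.5 in Col-0 (SD, n = 3 each). Its close relative WRKY17 had 519.6, 549.3 and 640.6 in sesquiα2, against 544.9, 376.3 and 370.8 in Col-0, which overlap (log2 fold change 0.42, adjusted p = 0.224); it was looked up after the values of WRKY11 were seen. WRKY27, a class IIe gene known from bacterial wilt, had 141.8, 155.1 and 149.3 in sesquiα2, against 86.94, 83 and 72.45 in Col-0 (log2 fold change 0.88, adjusted p = 0.0426). WRKY75 had 117, 194 and 66.35 in sesquiα2, against 74.47, 41.74 and 29.64 in Col-0, with overlap, and was not called (log2 fold change 1.32, adjusted p = 0.149; without Col-0 EN replicate 1 1.68, adjusted p = 0.0193).

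**Figure D2:**
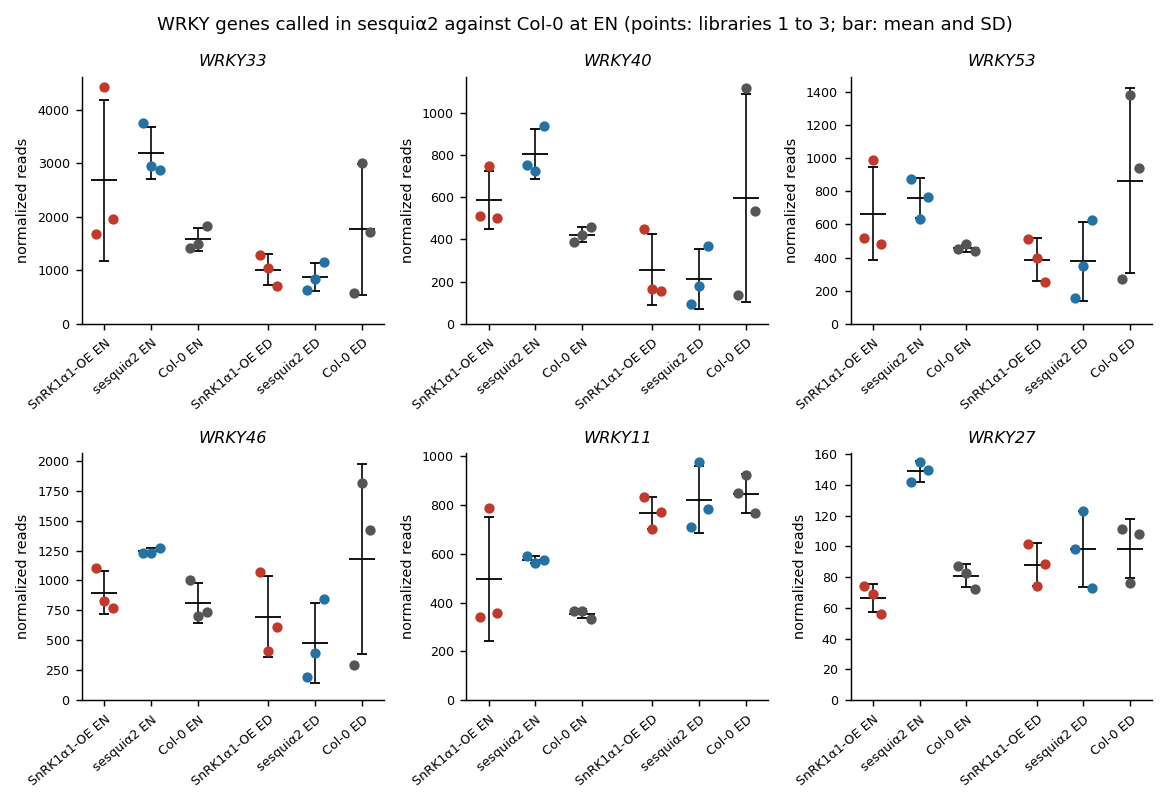
Normalized reads (vertical axes, from 0) of the 6 WRKY genes called in sesquiα2 against Col-0 at EN, with 1 point per library for SnRK1α1-OE (red), sesquiα2 (blue) and Col-0 (grey) at EN and ED, and the mean and SD of each group in black. At EN every sesquiα2 point lies above every Col-0 point, and at ED the Col-0 points of WRKY33, WRKY40, WRKY53 and WRKY46 are spread widely, for WRKY33 from 575 to 3011.

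The stretches before these genes were searched for the W box. In the 250 bases before the annotated start, TTGACC or TTGACT stood on either strand in 24 of the 70 WRKY genes, 34.3%, and in 28.4% of 27438 protein-coding genes of the table. The core TTGAC, which both motifs hold, stood in 51.4% of the WRKY genes and 44.9% of all. Of the 6 genes called at EN, WRKY33 and WRKY53 had 2 W boxes each and WRKY11 had 1, while these letters were not found in the windows of WRKY40, WRKY46 and WRKY27. The 3 windows with a W box are shown from the RefSeq TAIR10.1 genome, 5′ to 3′ on the strand of the gene, with W boxes of either strand in capitals. They are chr2:16107985-16108234 (plus strand) for WRKY33, chr4:12393983-12394232 (minus strand) for WRKY53 and chr4:15291935-15292184 (minus strand) for WRKY11.
WRKY33: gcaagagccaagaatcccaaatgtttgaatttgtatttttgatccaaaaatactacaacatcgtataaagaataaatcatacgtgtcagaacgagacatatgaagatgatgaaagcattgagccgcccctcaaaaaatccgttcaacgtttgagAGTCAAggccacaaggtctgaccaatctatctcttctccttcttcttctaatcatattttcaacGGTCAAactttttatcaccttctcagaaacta
WRKY53: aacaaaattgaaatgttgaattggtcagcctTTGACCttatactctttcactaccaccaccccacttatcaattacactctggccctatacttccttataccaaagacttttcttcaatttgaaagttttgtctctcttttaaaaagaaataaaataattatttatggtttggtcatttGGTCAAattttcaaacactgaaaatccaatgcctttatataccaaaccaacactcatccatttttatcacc
WRKY11: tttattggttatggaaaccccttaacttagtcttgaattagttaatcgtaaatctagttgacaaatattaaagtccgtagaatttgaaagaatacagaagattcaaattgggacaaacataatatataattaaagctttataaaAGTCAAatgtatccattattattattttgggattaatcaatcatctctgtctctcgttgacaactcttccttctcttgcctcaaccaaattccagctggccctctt
The W box nearest to the start ended 27 bases before it in WRKY33, 66 in WRKY53 and 101 in WRKY11.

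The genes lie at chr2:16108235-16110766 (WRKY33), chr1:30383561-30385499 (WRKY40), chr4:12392370-12393982 (WRKY53), chr2:19043411-19044955 (WRKY46), chr4:15289788-15291934 (WRKY11) and chr5:21410769-21412526 (WRKY27) of TAIR10.1. WRKY53 overlaps AT4G23800 by 341 bases, WRKY33 overlaps the long non-coding RNA AT2G08965 by 272 and AT2G38480 by 26, and WRKY40 overlaps AT1G80850 by 51, all on opposite strands. Whether reads were counted by strand is not stated, so reads of these pairs cannot be told apart. AT4G23800 averaged 1504 normalized reads and had a log2 fold change of 0.49 at EN (adjusted p = 0.114), while AT2G38480 and AT1G80850 had −0.31 and −0.23. In WRKY40, 7.09% of the 50-base windows of the gene occur elsewhere in the genome too.

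These calls rested on few libraries. Leaving out 1 library at a time, WRKY33 was called in all 6 fits (0.89 to 1.12) and WRKY40 in 5 (0.81 to 0.99), being lost without sesquiα2 EN replicate 3. WRKY53 was called in 2 of the 6 fits (0.61 to 0.84), and WRKY11 (0.65 to 0.72), WRKY27 (0.80 to 0.93) and WRKY46 (0.53 to 0.79) in 1 each, the fit without Col-0 EN replicate 1. The number of WRKY genes called was 2, 3 and 1 without sesquiα2 replicates 1, 2 and 3. It was 11, 2 and 2 without Col-0 replicates 1, 2 and 3. Of the 11, 9 were higher and 2 lower. Col-0 EN replicate 1 lay at least 2-fold above both other pools for 2 of the 60 WRKY genes and for 4.1% of all genes. The counts stand without the share of all genes called in the same fits, so they do not compare the family with all genes. In a fit of all 18 libraries, which takes the spread from every group, WRKY27 and WRKY1 were called, and WRKY33 had an adjusted p of 0.263, within a range of 4.77e-06 to 0.263 over 16 alternatives.

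The lowest values in sesquiα2 at EN were those of WRKY59 (−1.11, adjusted p = 0.183), WRKY63 (−0.87, adjusted p = 0.257), an abscisic acid response gene, and WRKY71 (−0.76, adjusted p = 0.311), which acts in branching and flowering. None of the 3 was called, and WRKY59 was called without Col-0 EN replicate 1 (−1.44, adjusted p = 0.0308). WRKY49 had the highest log2 fold change, 1.58 (adjusted p = 0.257), on 19.51, 25.33 and 16.6 normalized reads in sesquiα2, against 11.61, 12.2 and 1.14 in Col-0.

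Single genes around the family were also called at EN in sesquiα2, all of them higher. Of 13 salicylic acid and immunity genes these were CBP60g (log2 fold change 0.67, adjusted p = 0.0208), an activator of salicylic acid synthesis, and the glucanase gene PR2 (0.75, adjusted p = 0.0186). Of 11 tested genes for MAP kinases and VQ proteins it was SIB1 (0.92, adjusted p = 0.0248), whose protein binds WRKY33. Of 11 tested genes known to be controlled by a WRKY factor it was ACS6 (0.76, adjusted p = 0.00909), an ethylene synthesis gene. Of 12 tested genes of touch, wounding and cold these were ZAT10 (1.13, adjusted p = 0.00244) and SZF1 (1.08, adjusted p = 0.002), both zinc finger genes. The medians of these 4 lists were 0.27, 0.35, 0.32 and 0.53, against 0.1 over all genes, of which 1.84% were called higher. Of the 2 trichome markers GL3 was called higher as well (1.30, adjusted p = 0.0428 by limma). The other, GL1, had 16.41, 21.48 and 34.56 normalized reads in sesquiα2 at EN and 26.08, 25.9 and 22.54 in Col-0, which overlap. The summed level of both markers lay between 81 and 122 in sesquiα2 and between 49 and 58 in Col-0 at EN. Their part in the WRKY results was not tested.

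At ED, 1 WRKY gene was called in sesquiα2, and it was lower. WRKY54 had 1653, 2291 and 2160 normalized reads in sesquiα2 at ED, against 3712, 4251 and 3803 in Col-0. All sesquiα2 pools lay below all Col-0 pools, and WRKY54 fell by 0.96 on the log2 scale (SE 0.135, adjusted p = 0.0411). It is 1 of 57 WRKY genes tested, 1.75%, against 0.419% of all genes. The groups did not overlap for 3 WRKY genes upward and 5 downward, 14%, against 20.4% of all genes. The median log2 fold change was −0.46 over the WRKY genes and 6.58e-04 over all genes, and 44 of the 57 WRKY genes were negative, while 50.1% of all genes were positive. By class the median was −1.23 for the 3 genes of IIa, −1.15 for the 10 tested of class III and 0.06 for the 12 tested of class I. It was −0.63 for class IIc, −0.44 for IIb, −0.08 for IId and −0.01 for IIe. The median of the 13 salicylic acid genes was −1.31, and none of them was called.

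The call of WRKY54 was lost when any library other than Col-0 ED replicate 1 was left out, at log2 fold changes of −1.05 to −0.82 over the 6 fits. Over 16 alternatives its adjusted p lay between 1.06e-08 (DESeq2) and 0.2 (without Col-0 ED replicate 3).

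Other large differences at ED came with pools that disagreed. WRKY59, a class IIc gene that responds to salicylic acid through NPR1, had 2.072, 1.714 and 11.81 normalized reads in sesquiα2, against 24.41, 89.4 and 75.86 in Col-0 (log2 fold change −3.56, adjusted p = 0.115). These groups did not overlap, although 2 of the sesquiα2 values are at the level of a few reads. WRKY38, a negative regulator of basal defence, had 94.72, 171 and 310.9 in sesquiα2, against 262.3, 859.6 and 830.4 in Col-0 (log2 fold change −1.73, adjusted p = 0.295). WRKY31 had 4.159, 9.285 and 26.52 in sesquiα2, against 3.256, 139.1 and 101.5 in Col-0 (log2 fold change −1.80, adjusted p = 0.602), and its Col-0 replicate 1 lay below all sesquiα2 pools. The highest values were those of WRKY57 (0.53, adjusted p = 0.208), a drought tolerance gene, WRKY65 (0.30, adjusted p = 0.705) and WRKY69 (0.27, adjusted p = 0.645).

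Without Col-0 ED replicate 1, 12 of the 57 WRKY genes were called lower in sesquiα2 at ED, 21.1%, against 3.95% of all genes, and none was called higher. They were WRKY6, WRKY8, WRKY15, WRKY25, WRKY31, WRKY47, WRKY54, WRKY58, WRKY59, WRKY60, WRKY62 and WRKY70. WRKY31 and WRKY59 had a value of at least 10 in only 1 sesquiα2 pool and entered this fit only through the Col-0 pools. The filter thus favoured their lower calls. The pool left out was singled out for its low WRKY values, which favours lower calls among these genes. The sesquiα2 pools, which also differed, all stayed in, so the share is not a test of the family. In that fit WRKY54 fell by 1 on the log2 scale (adjusted p = 0.0212), WRKY62 by 2.28 (adjusted p = 0.0191) and WRKY70 by 1.23 (adjusted p = 0.0451). WRKY70 had 2622, 3790 and 4601 normalized reads in sesquiα2, against 4501, 9527 and 7378 in Col-0, and with all 6 libraries it was not called (log2 fold change −0.93, adjusted p = 0.272) while Col-0 replicate 1 lay within the range of sesquiα2. WRKY58, a negative regulator of systemic acquired resistance, had 112.8, 161.2 and 136.8 in sesquiα2, against 191.1, 265.7 and 263.8 in Col-0, with no overlap (log2 fold change −0.81, adjusted p = 0.17 with all libraries), and was chosen for naming after its values were seen.

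**Figure D3:**
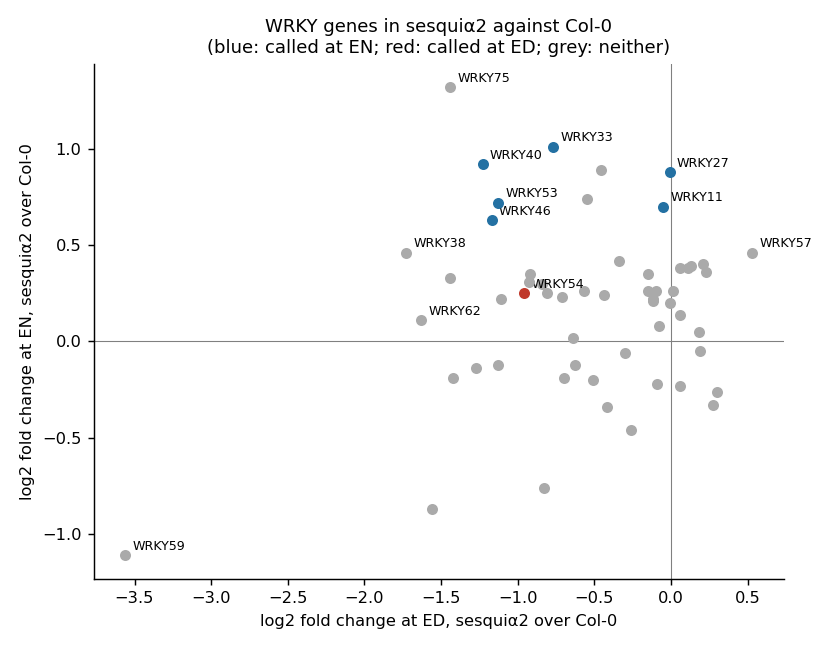
Each point is a WRKY gene tested at both times, with its log2 fold change in sesquiα2 over Col-0 at ED (horizontal axis) and at EN (vertical axis), from 6 libraries each. The 6 genes called at EN (blue) lie between 0.63 and 1.01 at EN and between −1.23 and −0.01 at ED, and WRKY54 (red), called at ED, lies at 0.25 at EN and −0.96 at ED.

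The difference of the sesquiα2 effect between the times was tested in 1 fit of 12 libraries, and WRKY54 was the only WRKY gene called. Its log2 fold change against Col-0 was 0.25 at EN and −0.96 at ED, and the difference of EN minus ED was 1.21 (SE 0.195, adjusted p = 0.027). It is 1 of 58 WRKY genes tested, 1.72%, against 0.815% of all genes. The difference was positive for 50 of the 58 and for 63.1% of all genes, with a median of 0.61, against 0.11 over all genes. Of 12 fits that each left out 1 library, with values of 1.06 to 1.33, 4 called WRKY54, those without sesquiα2 ED replicate 2, sesquiα2 EN replicate 2, Col-0 ED replicate 1 or Col-0 EN replicate 1. Over 22 alternatives its adjusted p lay between 3e-06 and 0.0769.

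Without Col-0 ED replicate 1, 18 WRKY genes were called in this test, all with a positive difference, 31%, against 5.95% of all genes. WRKY33 had a difference of 2.44 there (adjusted p = 0.00657), against 1.78 with all libraries (adjusted p = 0.213). WRKY40 had 2.99 without that pool (adjusted p = 0.0182), WRKY46 had 2.62 (adjusted p = 0.0274), WRKY53 had 2.53 (adjusted p = 0.0263) and WRKY70 had 1.54 (adjusted p = 0.0161). Leaving out any 1 of the other 11 libraries gave 0 to 2 genes. Since Col-0 ED replicate 1 was singled out for its low WRKY values, leaving it out favours positive differences in these genes. The share of 31% is therefore not a test of the family.

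**Figure D4:**
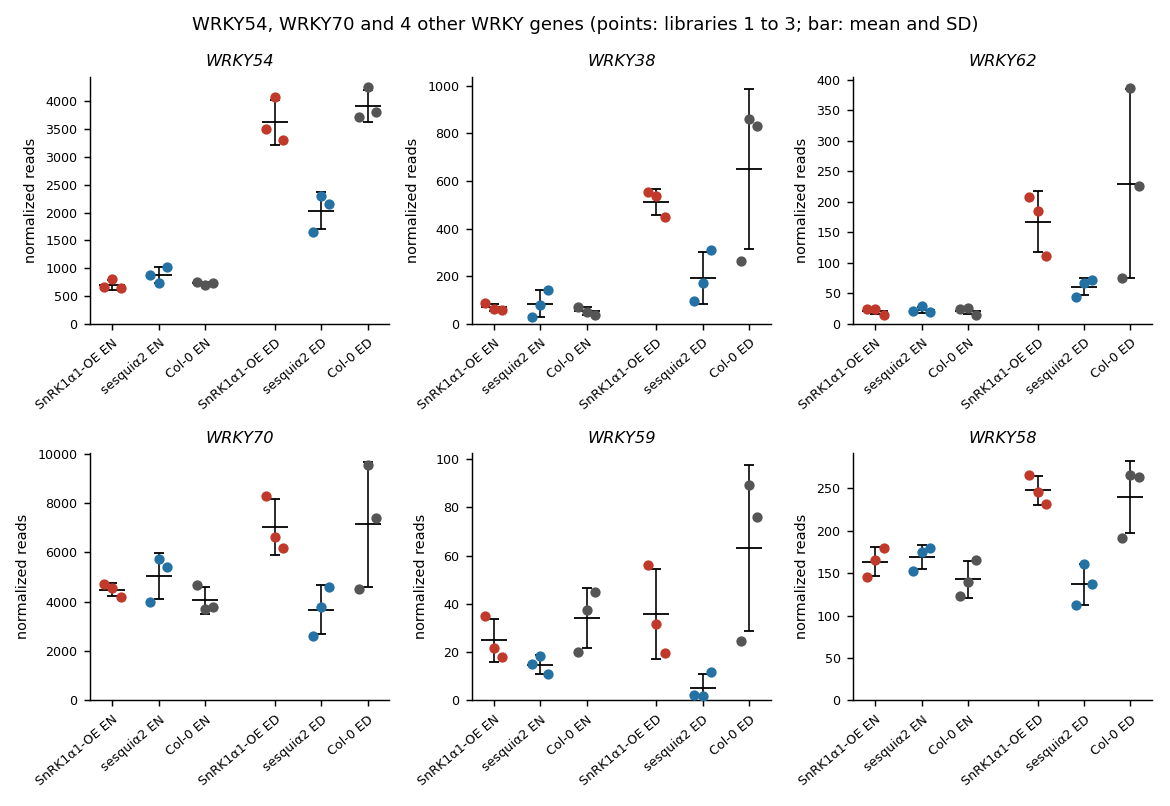
Normalized reads (vertical axes, from 0) of WRKY54, WRKY38, WRKY62, WRKY70, WRKY59 and WRKY58, with 1 point per library for SnRK1α1-OE (red), sesquiα2 (blue) and Col-0 (grey) at EN and ED, and the mean and SD of each group in black. At ED WRKY54 lies at 1653 to 2291 in sesquiα2, below 3712 to 4251 in Col-0, and at EN all genotypes lie between 642 and 1024.

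At ED 0 of 56 WRKY genes were called in SnRK1α1-OE against Col-0 by limma on the 6 libraries of the comparison, against 0.276% of all genes, with a smallest adjusted p of 0.0926 and 10 genes at an unadjusted p under 0.05, which 24.9% of all genes reached. edgeR's quasi-likelihood test on whole reads called 0 and DESeq2 called 1, WRKY44, a trichome and seed coat gene, with 296.4, 268 and 249.1 normalized reads in SnRK1α1-OE, against 196.1, 179.4 and 190.9 in Col-0. The groups did not overlap for 4 WRKY genes upward and 8 downward, 21.4%, against 31.4% of all genes. The median log2 fold change was −0.16 over the WRKY genes and −0.12 over all genes. The lowest values were those of WRKY55 (−1.65), WRKY30 (−1.14) and WRKY13 (−1.09), and the highest those of WRKY28 (0.91), an activator of ICS1, WRKY65 (0.71) and WRKY69 (0.59). WRKY55 had 26.56, 13.79 and 6.799 in SnRK1α1-OE, against 15.78, 81.48 and 69.3 in Col-0, with Col-0 replicate 1 inside the range of SnRK1α1-OE. The comparison shares its Col-0 pools with that of sesquiα2.

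Without Col-0 ED replicate 1, 11 WRKY genes were called lower in SnRK1α1-OE at ED, 19.6%, against 6.79% of all genes, and 1 was called higher, WRKY28 (1.19), 1.79%, against 4.22% of all genes. Among the 11 were WRKY33 (−1.21, adjusted p = 0.0458), WRKY38 (−0.73, adjusted p = 0.0231) and WRKY53 (−1.61, adjusted p = 0.0255). WRKY53 had 514.4, 398.7 and 251.9 normalized reads in SnRK1α1-OE, against 270.9, 1382 and 940.6 in Col-0, so that the low Col-0 pool lay within the range of SnRK1α1-OE and the other Col-0 pools above it. As that low pool was singled out for its WRKY values, leaving it out favours lower calls among these genes.

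At EN 0 of 56 WRKY genes were called in SnRK1α1-OE by limma on the 6 libraries, against 0.067% of all genes, with every adjusted p at 1 and 5 genes at an unadjusted p under 0.05, which 3.94% of all genes reached, and edgeR and DESeq2 called 0 as well. The groups did not overlap for 6 upward and 2 downward, 14.3%, against 10.3% of all genes. WRKY75 had the highest value, with 164.4, 81.17 and 126.7 normalized reads in SnRK1α1-OE, against 74.47, 41.74 and 29.64 in Col-0 (log2 fold change 1.38). The next were WRKY33 (0.64) and WRKY45 (0.58), a regulator of phosphate uptake, and the lowest were WRKY71 (−1.34), WRKY74 (−0.60) and WRKY59 (−0.42). WRKY33 had 1680, 4417 and 1961 in SnRK1α1-OE, where replicate 2 stood far above the other pools.

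In the test of whether the SnRK1α1-OE effect differed between the times, limma called 0 of 60 WRKY genes, against 0.21% of all genes, with a smallest adjusted p of 0.151 and 7 at an unadjusted p under 0.05, which 20.5% of all genes reached. edgeR called 0 and DESeq2 called 1, WRKY69. Without Col-0 ED replicate 1, 7 were called, all positive, 11.7%, against 4.3% of all genes. They were WRKY15, WRKY30, WRKY31, WRKY40, WRKY50, WRKY53 and WRKY55. Here too the choice of the pool left out favours positive differences in WRKY genes.

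Between EN and ED some WRKY genes moved the same way in every genotype. In SnRK1α1-OE, 18 of 56 were higher at EN and 14 lower, 32.1% and 25%, against 21.2% and 24.3% of all genes. With a log2 fold change of at least 1 added, 9 were higher and 7 lower, 16.1% and 12.5%, against 7.88% and 9.46%. In sesquiα2, 20 of 58 were higher and 7 lower, 34.5% and 12.1%, against 22.1% and 26.8% of all genes. The added limit left 13 higher and 4 lower, 22.4% and 6.9%, against 8.39% and 8.59%. In Col-0, 5 of 56 were higher and 13 lower, 8.93% and 23.2%, against 16.1% and 28.9% of all genes, and 2 and 6 passed the added limit, 3.57% and 10.7%, against 7.63% and 13.2%. Over all genes the median log2 fold change was −0.16 in Col-0, and with scaling by the median ratio its WRKY split was 7 higher and 7 lower. When Col-0 ED replicate 1 was left out, 6 were higher and 22 lower, 10.7% and 39.3%, against 16.2% and 30.2% of all genes. This pool was singled out for its low WRKY values, so leaving it out favours falls at EN in these genes.

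The deepest falls at EN were in class III. WRKY54 had 657, 808 and 642 normalized reads at EN and 3496, 4070 and 3300 at ED in SnRK1α1-OE and fell by 2.37 on the log2 scale (adjusted p = 1.27e-06). In sesquiα2 it had 871.1, 735.8 and 1024 at EN and 1653, 2291 and 2160 at ED and fell by 1.21 (adjusted p = 1.82e-04). In Col-0 it had 755.4, 701.3 and 737.3 at EN and 3712, 4251 and 3803 at ED and fell by 2.42 (adjusted p = 4.76e-06). The genotypes lay close together at EN, and sesquiα2 lay below the others at ED.

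WRKY38 and WRKY62, which both hold back basal defence, fell furthest in SnRK1α1-OE and Col-0. WRKY38 had 86.07, 63.19 and 59.17 at EN and 551.7, 534.8 and 450.1 at ED in SnRK1α1-OE and fell by 2.88. In sesquiα2 it had 30.87, 80.99 and 142 at EN and 94.72, 171 and 310.9 at ED, which overlap, and was not called (log2 fold change −1.26, adjusted p = 0.142; without sesquiα2 EN replicate 3 −1.76, adjusted p = 0.0457). In Col-0 it had 69.6, 51.93 and 37.4 at EN and 262.3, 859.6 and 830.4 at ED and fell by 3.45. WRKY62 fell by 2.90 in SnRK1α1-OE, by 1.36 in sesquiα2 and by 3.1 in Col-0, where it had 24.15, 25.73 and 14.83 at EN and 75.83, 386 and 226.8 at ED. The difference of the sesquiα2 effect between the times was not called for WRKY38 (2.19, adjusted p = 0.22) or WRKY62 (1.74, adjusted p = 0.214).

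Smaller falls were called in every genotype for 3 genes of other classes. WRKY42, a regulator of phosphate transport, fell by 1.53 on the log2 scale in SnRK1α1-OE, 1.08 in sesquiα2 and 1.48 in Col-0. WRKY23, an auxin-responsive gene, fell by 1.45 in SnRK1α1-OE, 1.13 in sesquiα2 and 1.47 in Col-0, with 144, 125.4 and 99.55 normalized reads at EN and 327.4, 362.8 and 312.1 at ED in SnRK1α1-OE. WRKY3, a gene of resistance to necrotrophs, fell by 0.43, 0.69 and 0.46 in the same order of genotypes. For all 3 genes the EN pools lay below the ED pools in every genotype, and with 1 library left out WRKY3 was called in 3 of 6 fits in SnRK1α1-OE and 3 of 6 in Col-0.

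The 5 genes that rose at EN in every genotype were of several classes. WRKY22, which acts below the flagellin receptor, had 187.4, 254.5 and 212.1 normalized reads at EN and 76.16, 72.78 and 66.35 at ED in SnRK1α1-OE, and rose by 1.58 on the log2 scale there, by 1.68 in sesquiα2 and by 1.40 in Col-0. Its partner WRKY29 was called in sesquiα2 (1.11, adjusted p = 0.0417), with values of 0.49 in SnRK1α1-OE and 0.45 in Col-0, and the difference between sesquiα2 and Col-0 was not called (0.66, adjusted p = 0.632). WRKY26, a heat response gene, rose by 1.16 in SnRK1α1-OE, 1.19 in sesquiα2 and 1.39 in Col-0. WRKY39 rose by 1.25, 1.33 and 0.97 in the same order, WRKY4 by 0.94, 0.68 and 0.81, and WRKY57 by 1.12, 0.46 and 0.54. With 1 library left out, WRKY57 was called in 2 of 6 fits in sesquiα2 and 2 of 6 in Col-0, and WRKY29 in 1 of 6 in sesquiα2 (0.72 to 1.53). WRKY39 had 1391, 1309 and 1240 at EN and 575.4, 549.6 and 533.2 at ED in SnRK1α1-OE, and 1245, 1192 and 1139 at EN and 577.7, 618.5 and 631.4 at ED in Col-0, with all EN pools above all ED pools.

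Several stress-responsive genes were called higher at EN in a line while Col-0 had a wide error. WRKY40 rose by 1.35 in SnRK1α1-OE (adjusted p = 0.0142) and by 2.12 in sesquiα2 (adjusted p = 0.00921), and had −0.04 in Col-0 (SE 0.661). WRKY33 rose by 1.31 in SnRK1α1-OE and by 1.91 in sesquiα2, and had 0.13 in Col-0 (SE 0.527). WRKY75 rose by 2.52 in sesquiα2, with 117, 194 and 66.35 normalized reads at EN and 8.277, 14.75 and 54.97 at ED, and was not called in SnRK1α1-OE (1.19) or Col-0 (−0.24, SE 0.813). WRKY63 rose by 2.11 in sesquiα2, and WRKY55 and WRKY30 rose by 2.35 and 1.58 in SnRK1α1-OE. With all libraries, the test of the difference from Col-0 called none of these, at 2.16 for WRKY40, 1.78 for WRKY33, 2.77 for WRKY75 and 0.69 for WRKY63 in sesquiα2, and 1.74 for WRKY55 and 1.70 for WRKY30 in SnRK1α1-OE. Without Col-0 ED replicate 1, limma called WRKY40 (−0.87, adjusted p = 0.0429) and WRKY75 (−1.24, adjusted p = 0.0391) lower at EN in Col-0. It also called WRKY46 (−1, adjusted p = 0.00462) and WRKY53 (−1.32, adjusted p = 9.98e-04) lower there. That pool lay at least 2-fold below both others for each of these genes, so leaving it out favours such falls. With 1 library left out, WRKY40 was called in 3 of 6 fits in SnRK1α1-OE (1.08 to 1.85) and 5 of 6 in sesquiα2 (1.64 to 2.62). In sesquiα2 WRKY75 was called in 4 of 6 (1.96 to 3.26) and WRKY63 in 4 of 6 (1.58 to 2.71). WRKY75 in SnRK1α1-OE was called without ED replicate 1 (1.76, adjusted p = 0.00532), its highest ED pool, and leaving that out favours a rise. With all libraries WRKY75 in SnRK1α1-OE was also called with median-ratio scaling (log2 fold change 1.21, adjusted p = 0.0456), quantile normalization (1.3, adjusted p = 0.0365) and by DESeq2 (1.03, adjusted p = 0.0497).

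**Figure D5:**
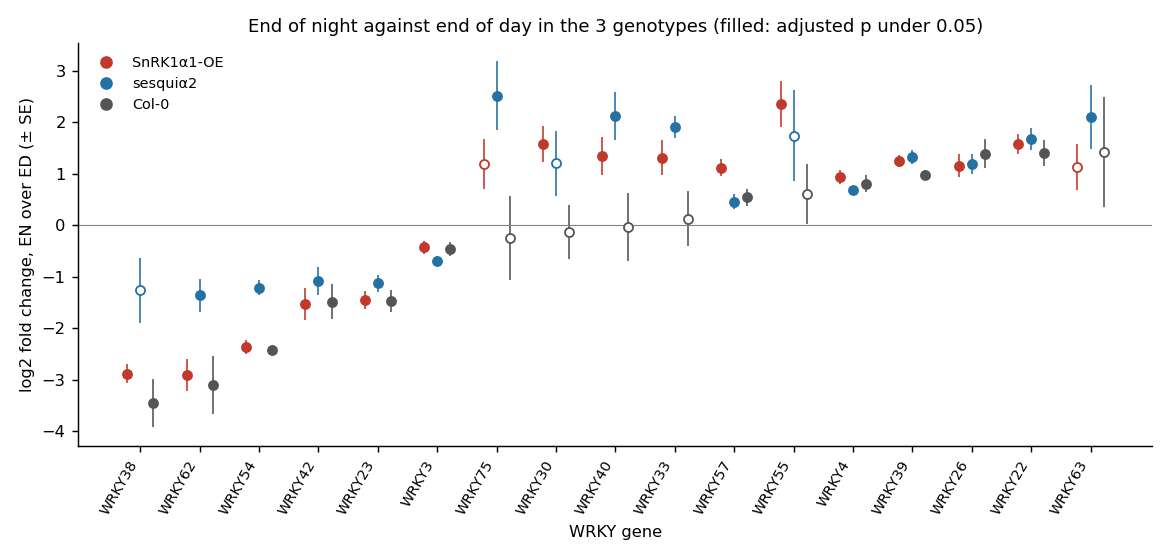
Log2 fold change of EN over ED with its SE (vertical axis) for the WRKY genes with the largest called rises and falls, in SnRK1α1-OE (red), sesquiα2 (blue) and Col-0 (grey), ordered by the value in Col-0, with filled points at an adjusted p under 0.05. WRKY38, WRKY62 and WRKY54 stand lowest in Col-0 at −3.45, −3.1 and −2.42, and the error bars of WRKY75, WRKY30, WRKY40 and WRKY33 in Col-0 reach both sides of 0.

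The class IIa genes WRKY18, WRKY40 and WRKY60, whose proteins bind each other, had different patterns. WRKY18 had 1060, 1119 and 928.2 normalized reads at EN and 1861, 1588 and 1218 at ED in SnRK1α1-OE and fell by 0.57 on the log2 scale (adjusted p = 0.0177), where WRKY40 rose. In sesquiα2 WRKY18 had 896.1, 856.7 and 1016 at EN and 372, 638.7 and 998.5 at ED and was not called (log2 fold change 0.57, adjusted p = 0.201). WRKY60 was called in no comparison with all libraries, with 353.8, 299.6 and 372.3 at EN and 261, 223.3 and 292.1 at ED in sesquiα2, and 398, 422.5 and 350.2 at EN and 274.1, 505.6 and 533.5 at ED in Col-0. WRKY70 fell at EN by 0.64 in SnRK1α1-OE and by 0.76 in Col-0, and had 0.48 in sesquiα2 (adjusted p = 0.117). WRKY6, which acts in senescence and phosphate transport, rose at EN by 0.89 in SnRK1α1-OE and by 0.61 in sesquiα2, and had 0.30 in Col-0 (SE 0.539). WRKY46 rose at EN by 1.62 in sesquiα2 (adjusted p = 0.0454), and WRKY53 with 1.22 was not called there (adjusted p = 0.0945). With 1 library left out, WRKY18 was called in 3 of 6 fits in SnRK1α1-OE, WRKY70 in 1 of 6 in Col-0 (−1.06 to −0.52), WRKY46 in 2 of 6 in sesquiα2 (1.11 to 2.15), and WRKY6 in 5 of 6 in SnRK1α1-OE and 4 of 6 in sesquiα2. Without sesquiα2 ED replicate 3, WRKY18 (0.92, adjusted p = 0.00753), WRKY53 (1.70, adjusted p = 0.00274) and WRKY70 (0.66, adjusted p = 0.0231) were called higher at EN in sesquiα2. WRKY70 was also called without EN replicate 1 (0.64, adjusted p = 0.0487). ED replicate 3 was the highest sesquiα2 ED pool for these genes, and EN replicate 1 the lowest EN pool for WRKY70. Leaving these pools out favours rises at EN in these genes.

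Around the family, touch, wound and cold genes were mostly called higher at EN than at ED in the lines. In SnRK1α1-OE 9 of 13 tested were higher and 1 lower (median log2 fold change 1.13), in sesquiα2 11 of 14 higher and 1 lower (1.98), and in Col-0 4 of 13 higher and 1 lower (0.54). The medians over all genes were −0.03, −0.03 and −0.16 in the same order. Of the 13 salicylic acid genes 5 were higher and 1 lower in SnRK1α1-OE, 3 higher in sesquiα2 and 1 lower in Col-0. Of 11 tested MAP kinase and VQ genes 4 were higher and 3 lower in SnRK1α1-OE, 7 higher in sesquiα2 and 4 lower in Col-0. Among all genes 21.2% were called higher and 24.3% lower in SnRK1α1-OE, 22.1% and 26.8% in sesquiα2, and 16.1% and 28.9% in Col-0. Of 3 markers of senescing leaves, NAP and ORE1 were called higher at EN in every genotype and SAG12 had 0 reads in all libraries but replicate 3 of sesquiα2 at EN, at 4.009 normalized reads. Their summed level lay between 757 and 1078 at EN and between 22 and 36 at ED in SnRK1α1-OE, between 815 and 1437 at EN and 28 and 80 at ED in sesquiα2, and between 731 and 984 at EN and 27 and 65 at ED in Col-0. Its part in the WRKY differences between the times was not tested. In the limma test of the difference between the times, SIB1 (1.82, adjusted p = 0.0313) and SZF1 (1.67, adjusted p = 0.0433) were called for sesquiα2. That test called 0.815% of all genes.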

How the data were processed

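RNA of 18 libraries, 3 for each of 6 genotype and time groups, was sequenced as poly-A libraries on a BGISEQ-500. The submitters' processing notes name HISAT2, SAMtools, featureCounts and edgeR, with the TAIR10 build; the strand setting is not given in the sources used here. The deposited values are of the unit signal: per the study's methods, the authors turned gene counts into edgeR pseudo-counts and multiplied them by the TMM factor, which leaves reads scaled to a common total. Whole reads were recovered from 99.936% of 590994 values (within 0.1%), at a dispersion of 0.0232. Libraries held 35050877 to 40416618 reads, and no pair of libraries within a group was a duplicate.

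Groups follow the labels, and ColB samples were not analysed here. Values were tested as log2(value + 1), which understates the change of low genes, with limma 3.58.1 in R 4.3.3 (lmFit, eBayes with trend and robust settings) on the libraries of each comparison. Genes entered with values of 10 or more in at least 3 libraries, summing to 15 or more. Two-sided p-values had Benjamini-Hochberg adjustment over all genes tested, and those under 0.05 were called. Alternatives were pseudocounts of 0.125 and 4, no filter, other scalings, all 18 libraries in 1 fit, a non-robust eBayes, a replicate block, each library left out, and edgeR 4.0.16 and DESeq2 1.42.0 on recovered reads. Sequences are RefSeq TAIR10.1.

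The WRKY genes and gene lists were chosen with earlier results of these data known. Named were genes called against Col-0 or in a difference test, the 3 highest and 3 lowest fold changes per line and time, the 5 largest called rises and falls between times in each genotype, the 6 with the largest spread, the 5 highest per kb and 12 well-studied members. WRKY12, WRKY17, WRKY35, WRKY44, WRKY58 and genes called only without 1 library were named after their values were seen.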

Additional observations from a re-analysis of the deposited data

Results flagged for a closer look

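The sesquiα2 effect on WRKY54 differed between the times by the test of the difference itself. The log2 fold change in sesquiα2 over Col-0 was 0.25 at EN and −0.96 at ED, and the difference of EN minus ED was 1.21 (SE 0.195, adjusted p = 0.027 by limma). At ED all 3 sesquiα2 pools lay below all 3 Col-0 pools, and at EN the groups overlapped. With 1 library left out, the difference was called in 4 of 12 fits. Its adjusted p reached 0.0769 over 22 alternatives, so the call rests on few libraries.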

How the results depend on the processing

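With 1 library left out at a time, the number of WRKY genes called lay between 0 and 12 in SnRK1α1-OE against Col-0 at ED and was 0 in all 6 fits at EN. It lay between 0 and 12 in sesquiα2 against Col-0 at ED and between 1 and 11 at EN. For EN against ED it lay between 26 and 33 in SnRK1α1-OE, 20 and 31 in sesquiα2 and 11 and 28 in Col-0, and for the difference between times between 0 and 7 in SnRK1α1-OE and 0 and 18 in sesquiα2. The highest counts at ED, for both differences and in Col-0 came without Col-0 ED replicate 1, and 11 at EN came without Col-0 EN replicate 1.

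The fit of all 18 libraries called 1 gene in SnRK1α1-OE at ED (WRKY57), 5 in sesquiα2 at ED (WRKY18, WRKY54, WRKY58, WRKY59 and WRKY70), 2 in sesquiα2 at EN (WRKY1 and WRKY27) and 2 for its difference between times (WRKY54 and WRKY58). DESeq2 called 1 in SnRK1α1-OE at ED (WRKY44), 7 in sesquiα2 at ED, 1 for the SnRK1α1-OE difference (WRKY69) and 4 for the sesquiα2 difference (WRKY11, WRKY54, WRKY58 and WRKY70). At EN in sesquiα2 edgeR called 4 and DESeq2 7. The cause of these changes was not tested. The counts in this section stand without the share of all genes called in the same fits. They show how the number of calls moves with the setting and do not compare the family with all genes.

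In no comparison did all 3 pairs of the same replicate number have correlated deviations above 0.1 (−0.39 to 0.5 over all pairs), so the numbers were not taken to pair samples. With a replicate block 1 gene was called in SnRK1α1-OE at EN (WRKY75, log2 fold change 1.38, adjusted p = 0.0159), 0 in sesquiα2 at ED and 5 at EN, and 31, 27 and 20 for EN against ED in SnRK1α1-OE, sesquiα2 and Col-0, while the differences between times had 0 in SnRK1α1-OE and 1 in sesquiα2. No called value turned its direction. Values that were not called and turned were those of EN against ED in Col-0 and 1 difference. WRKY40 had −0.04 there, 0.14 with median-ratio scaling, 0.15 with quantile normalization and −0.87 to 0.64 with 1 library left out. WRKY33 had 0.13, −0.03 by edgeR and −0.53 to 0.66 with 1 library left out, WRKY6 −0.38 to 0.73 and WRKY75 −1.24 to 0.32. WRKY63 had −0.24 to 2.03 in the sesquiα2 difference. For single genes, 1922 values stayed on their side of the threshold, 194 lost a call and 41 gained one. The 10 genes with at most 12 reads in any library could not be tested.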
